A study of Homo sapiens with 8 samples.

Results

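The peaks described here mark RNA segments enriched by an N6-methyladenosine (m6A) antibody over their input in wild-type HEK293T cells, an established human embryonic kidney line. The members are all 29084 peaks of the wild-type list, out of 53021 in the 2 lists of the series. They stand for 2 wild-type IP samples called against 2 wild-type input samples of chromosome-associated RNA, from cells with no allele or agent named beyond the parental genotype. The RNA had been cleared of DNA and ribosomal RNA, and the libraries kept the strand. For context, the list of the METTL3 knockout held 23937 peaks. The list gives 1 value per peak and none per replicate, so no spread between replicates could be computed. No label says whether the replicates were separate cultures. Values below describe 1 list, and intervals cover counting error only.

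N6-methyladenosine is the most common internal modification of messenger RNA. It is written in the nucleus, while RNA is being made, by a complex with METTL3 as its catalytic subunit and METTL14, WTAP and VIRMA among its partners, mostly where the RNA reads GGAC or a close variant. RNA held on chromatin is rich in unspliced transcripts, so introns are measured along with exons. Peaks can therefore lie anywhere in a gene body. The reference table gives gene bounds but no exons, and exon or intron position was not analysed here.

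A few peaks had their summit right at a gene start, where the reference holds sequence. A promoter window ran from 250 bases before a start to 50 after it. Of all peaks, 114 (0.392%) had their summit in such a window of a protein-coding gene on the gene's strand, in 112 genes. The 6 of highest fold belonged to RHOU, KAT6B, PFKP, LOC105379504, ELOVL6 and ARPIN. Their folds over input were 20.2, 18.5, 17.8, 16.4, 14.5 and 13.9. In ELOVL6, a fatty acid elongase gene, the summit lay 37 bases after the start, on 54 IP reads. In ARPIN, whose product inhibits the Arp2/3 complex, it lay at -5 from the start, on 37 IP reads. The 3 windows with the highest fold are shown, so that the summit can be set against the letters of the RNA strand. That of ELOVL6 is shown too, while the window of LOC105379504, of higher fold and without a GGAC, is left out. The 4 shown are therefore not a fair sample for the motif. The sequences are from RefSeq (GRCh38.p14), read 5′ to 3′ on the gene's strand, and capitals mark each GGAC.

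RHOU promoter window (chr1:228644397-228644696, plus strand): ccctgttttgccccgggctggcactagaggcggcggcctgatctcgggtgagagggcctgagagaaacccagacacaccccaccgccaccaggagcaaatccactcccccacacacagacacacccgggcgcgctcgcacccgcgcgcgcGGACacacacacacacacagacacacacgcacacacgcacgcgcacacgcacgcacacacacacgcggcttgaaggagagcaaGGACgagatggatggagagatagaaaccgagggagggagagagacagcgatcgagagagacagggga
KAT6B promoter window (chr10:74825229-74825528, plus strand): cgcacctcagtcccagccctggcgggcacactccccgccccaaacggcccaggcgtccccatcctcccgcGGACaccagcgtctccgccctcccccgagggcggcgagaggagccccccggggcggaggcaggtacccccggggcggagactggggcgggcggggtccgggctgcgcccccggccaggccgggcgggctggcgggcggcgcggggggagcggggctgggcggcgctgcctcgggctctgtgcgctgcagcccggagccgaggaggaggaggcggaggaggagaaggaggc
PFKP promoter window (chr10:3067720-3068019, plus strand): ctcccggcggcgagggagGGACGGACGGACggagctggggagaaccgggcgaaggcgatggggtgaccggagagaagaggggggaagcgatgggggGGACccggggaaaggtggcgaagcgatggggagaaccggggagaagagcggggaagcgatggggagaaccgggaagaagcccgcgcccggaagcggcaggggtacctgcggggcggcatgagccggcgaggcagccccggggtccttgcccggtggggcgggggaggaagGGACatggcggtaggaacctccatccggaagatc
ELOVL6 promoter window (chr4:110198566-110198865, minus strand): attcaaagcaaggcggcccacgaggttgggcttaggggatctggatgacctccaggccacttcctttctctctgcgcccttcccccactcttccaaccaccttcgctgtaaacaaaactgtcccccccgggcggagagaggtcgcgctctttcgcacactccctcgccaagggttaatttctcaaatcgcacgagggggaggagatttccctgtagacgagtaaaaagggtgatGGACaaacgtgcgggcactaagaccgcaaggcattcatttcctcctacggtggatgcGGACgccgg

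The RHOU peak spanned 228644449 to 228644775 on chromosome 1, with the summit at -19 from the start, on 65 IP reads. The window holds 2 GGAC, and the nearer begins at -17, or 2 bases from the summit. In ELOVL6 the nearer of 2 GGAC begins 4 bases after the summit, and in PFKP 1 begins on the summit itself, at -224. KAT6B encodes a histone acetyltransferase, and its summit lay 42 bases after the start, on 35 IP reads. The single GGAC of the KAT6B window begins at -180. The KAT6B peak ran on to 74825648, past the window end at 74825528, so a nearer GGAC beyond it would be missed. The peaks of RHOU, PFKP and ELOVL6 also reached past a window edge, and sequence beyond the windows was not searched. The window of PFKP, a phosphofructokinase gene of glycolysis, holds 5 GGAC. In the ARPIN window the single GGAC begins at -77, and the window of LOC105379504 holds 0. Both peaks reached past their windows too. GGAC on the RNA strand was found in 92 of 120 windows with a summit (76.7%) and in 69.3% of all 22199 windows of coding genes. On either strand the shares were 89.2% and 89.9%. The longer GGACT, which contains GGAC, was on the RNA strand of 31.7% and 25.8% of these windows, and on either strand of 45% and 45.3%. A match in so common a motif describes the window and marks no site.

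Few microRNA hairpins were touched by a peak. Of 1560 hairpin genes with a sequence, 7 were touched by a peak on their own strand and MIR1260B by a peak on the opposite strand. The touched hairpins were 68 to 153 nt long. The share of other stretches so short that a peak touches was not computed, so the count shows no depletion. A single peak of 624 bp on chromosome 20 (63919537 to 63920160) covered 3 copies of MIR941, which lie within the bounds of DNAJC5 on its strand, with a fold of 10.1 on 85 IP reads. It is shown with MIR320D1, which had the highest fold of the 7, at 10.5 on 35 IP reads, and lies in no coding or long noncoding gene body. Capitals again mark GGAC, which occurs in 427 of 1562 listed hairpins (27.3%).

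MIR941-3 hairpin: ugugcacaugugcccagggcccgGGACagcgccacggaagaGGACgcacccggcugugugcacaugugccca
MIR320D1 hairpin: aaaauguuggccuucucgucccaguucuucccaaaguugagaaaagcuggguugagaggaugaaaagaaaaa

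MIR941-4 and MIR941-5 hold the same letters, so reads of the copies cannot be told apart by the hairpin. The peak over MIR6866 on chromosome 17 had a fold of 9.59 on 90 IP reads, and that over MIR3180-5, within PKD1, a fold of 7.81 on 31. The peak that reached MIR6859-4 met it in 2 bases.

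From the fold and the p-value of each peak, the IP reads and the local input at the summit were recovered, with 1 solution for 98.2% of peaks. The IP reads had a median of 24 (quartiles 15 and 42) and ran from 6 to 800. Local input, the input reads the peak caller expected at the summit, had a median of 0.820 (quartiles 0.280 and 2.40). IP depth was 1.65 times the input depth on the plus strand and 1.75 times on the minus strand. At 4649 peaks (15.98%) the local input equalled the caller's background for that strand, so no local input above background stood behind the fold. The share was 11.6% on the plus and 21.0% on the minus strand. The fold itself had a median of 7.29 (quartiles 5.92 and 8.94) and a highest value of 52.6. Fold and read support went apart. Peaks on more than 42 IP reads had a median fold of 6.26, and those on up to 15 reads 6.65, while both groups between had 8.09 and 8.14.

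Most peaks lay in annotated gene bodies, and over genes of listed strand mostly on the gene's own strand. Of the 29084 peaks, 85.0% (95% Clopper-Pearson interval 84.6 to 85.4) overlapped the body of a protein-coding or long noncoding gene by at least 1 bp. The share of the genome within these bodies was not computed, so no excess is read from that value. Gene strand was listed for 15843 of 20050 protein-coding and 11462 of 18303 long noncoding genes. Among 19026 peaks over a protein-coding gene of listed strand, 93.5% (93.1 to 93.9) lay on the gene's own strand. Over long noncoding genes without a coding gene at the same place, 76.4% of 1354 did (74.0 to 78.6). In all, 17791 peaks (61.2%) lay on the own strand of a protein-coding gene and 1268 (4.36%) on that of a long noncoding gene but of no coding gene. A further 4373 (15.04%) lay in genes of unlisted strand, and 1284 (4.41%) only opposite to a listed gene. The other 4368 (15.02%) lay in no such body.

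These classes differed in support more than in fold. The median fold was 7.26 on the own strand of coding genes, 7.15 opposite to listed genes and 7.36 outside all bodies. The median number of IP reads was 26, 16 and 18 in the same order. Local input sat at the background in 9.73% of peaks on the own strand of coding genes, in 42.2% of those opposite to a listed gene and in 31.7% of those outside. Exactly 200 bp wide, the narrowest width in the list, were 37.3%, 54.8% and 49.5% of them.

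Counted on either strand, peaks touched 39.6% of the listed coding genes and 10.3% of long noncoding genes. On the same rule they touched 10 of 156 small nuclear RNA genes (6.41%), 2 of 1199 small nucleolar RNA genes (0.167%) and 9 of 1913 microRNA genes (0.470%). Transcribed pseudogenes had a peak in 284 of 1268 genes (22.4%) and other pseudogenes in 369 of 15614 (2.36%). Pseudogenes share sequence with their parent genes, so their reads are uncertain. Outside the autosomes and chromosome X lay 79 peaks, of which mitochondrial DNA held 4 and 23 unplaced scaffolds 69. The rest lay on chromosome Y, and whether their reads map to a single place was not tested.

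Per gene, most carriers held 1 or 2 peaks and a small group held many. Of 15843 protein-coding genes of listed strand, 6011 (37.9%) had at least 1 peak on their own strand, against 679 of 11462 long noncoding genes (5.92%). These shares are the background for the counts of genes by own-strand peaks below. Carriers had a median of 2 peaks in coding genes and 1 in long noncoding genes. In coding genes 2550 carriers (42.4%) had a single peak, and 278 had 10 or more. Those 278 held 23.8% of all 18006 pairs of a peak and its coding gene, where a peak in overlapping genes counts for each. Among long noncoding genes 410 carriers (60.4%) had a single peak, and 18 had 10 or more, which held 16.5% of 1494 pairs. The 100 leading genes held 46.4% of these pairs, against 12.4% for the 100 leading coding genes. These 2 shares are not alike, since the 100 come from 679 carriers in the first case and 6011 in the second.

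Gene length went with the chance of carrying a peak. The median length was 58.4 kb in coding genes with a peak and 14.5 kb in those without, and 37.1 kb and 8.40 kb in long noncoding genes. A peak was present in 6.50% of coding genes of up to 5 kb, 23.8% of those over 10 to 20 kb, 58.7% over 50 to 100 kb and 73.1% over 200 to 500 kb. Above 500 kb the share was 68.8% (62.8 to 74.4). For genes over 200 kb together it was 72.1% (69.5 to 74.7), and for those of at most 20 kb 15.3% (14.5 to 16.2).

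Peaks per Mb ran the other way. Coding gene bodies held 29.98 peaks per Mb at up to 5 kb, 21.9 over 20 to 50 kb, 15.4 over 200 to 500 kb and 9.83 above 500 kb. The mean over all of them was 17.0 on the own strand and 1.48 on the opposite strand. Support went down with length too. The median IP reads behind a peak were 37 in coding genes of up to 5 kb, 30 over 50 to 100 kb and 21 above 500 kb, and the median local input was 2, 1.2 and 0.6. The part of input level in the lower density of long genes was not tested. Long noncoding genes had 4.91 peaks per Mb in all, with 7.94 at up to 5 kb and 6.63 over 100 to 200 kb. Their opposite strand held 3.40 per Mb.

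**Figure D1:**
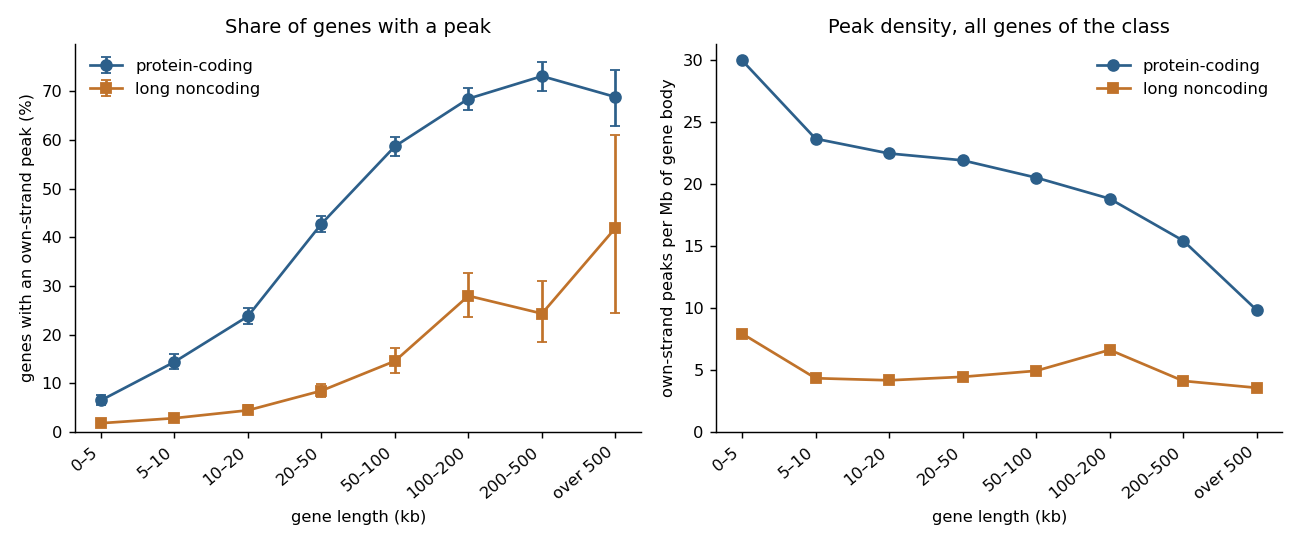
Left, the percentage of genes with at least 1 peak on their own strand by gene length in kb, for protein-coding and long noncoding genes, with 95% Clopper-Pearson intervals; right, own-strand peaks per Mb of gene body for the same classes. The share of coding genes with a peak is 6.50% at up to 5 kb and 73.1% over 200 to 500 kb, while the density is 29.98 and 15.4 per Mb.

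Among coding genes of listed strand, the 10 with the most peaks were all long, from DNAH14 with 469.6 kb to ROBO2 with 1743 kb. ADGRB3, an adhesion G protein-coupled receptor gene on chromosome 6 (68635282 to 69389506, plus strand), held 50 peaks, or 1 per 15.1 kb, with folds from 2.56 to 30.95. FHIT, a large gene at a common fragile site on chromosome 3 (59747277 to 61251452, minus strand), held 49 at 1 per 30.7 kb. NLGN1, which encodes a synaptic adhesion protein, held 48, and the glypican gene GPC6 held 43. They were followed by the teneurin gene TENM1 with 42, the Eph receptor gene EPHA6 and the Slit receptor gene ROBO2 with 41 each, the axonemal dynein gene DNAH14 and the synaptic scaffold gene GPHN with 39 each, and ROBO1 with 38. GPHN also had 3 peaks on its opposite strand, and in the rest of the 10 genes 0 peaks lay there.

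The spread of peaks along the body differed between these 10 genes, and the spread expected of random placement was not computed. With each body split into 3 equal parts, EPHA6 held 32 of its 41 peaks in the 5′ part, 7 in the middle and 2 in the 3′ part. DNAH14 held 21, 14 and 4 in the same order, and ROBO2 23, 6 and 12. ADGRB3 held 21, 18 and 11, and GPHN 19, 13 and 7. Other genes were closer to even or had most peaks elsewhere. GPC6 held 12, 18 and 13, TENM1 15, 16 and 11, and FHIT 19, 20 and 10. In NLGN1 and ROBO1 the 3′ part held most, with 13, 17 and 18, and 12, 10 and 16. Empty stretches were long. ROBO2 had 392.5 kb without a summit and FHIT 221.1 kb, although their median gaps were 26.1 and 20.6 kb. Support differed as well, from a median of 18 IP reads in ROBO2 to 50 in DNAH14 and 58 in EPHA6.

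**Figure D2:**
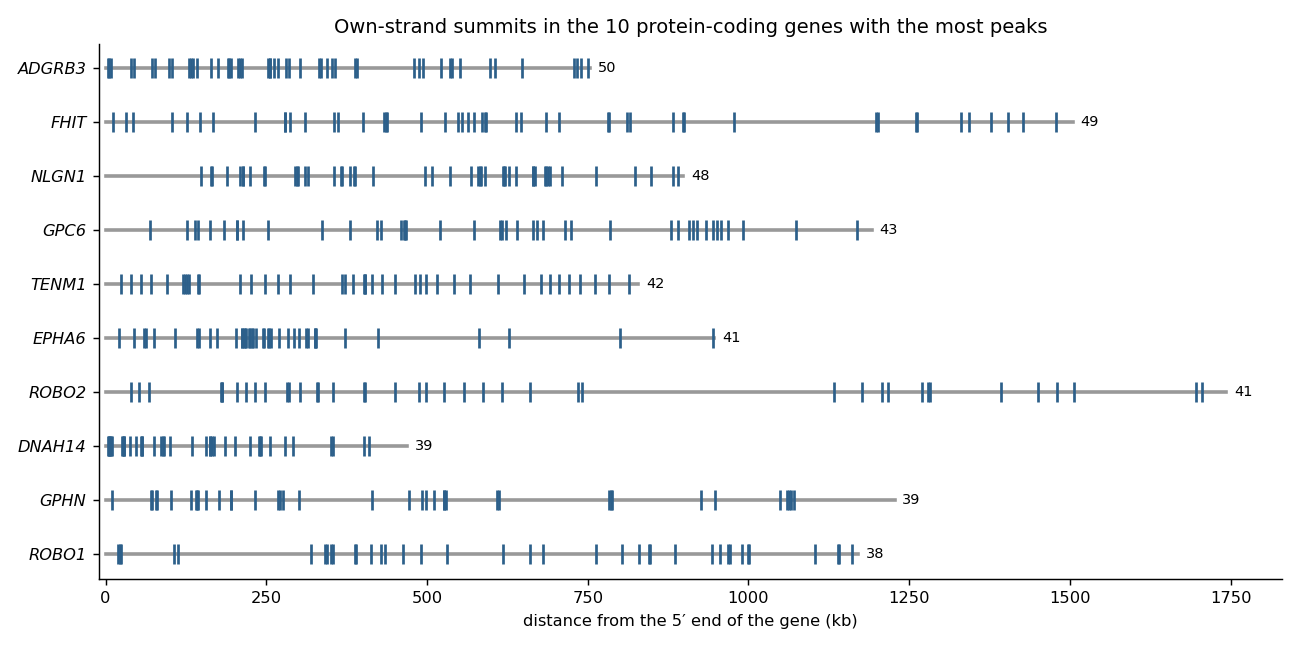
Positions of own-strand peak summits (ticks) along the 10 protein-coding genes of listed strand with the most own-strand peaks, as distance in kb from the 5′ end of each gene (grey line), with the number of summits at the right. EPHA6 has 32 of 41 summits in the first of 3 equal parts of its body, and ROBO2 has a gap of 392.5 kb.

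Among long noncoding genes of listed strand MIR924HG, a microRNA host gene on chromosome 18 (39206924 to 39751995), led with 22 peaks in 545.1 kb. DLEU1 on chromosome 13, a gene of the region often deleted in leukaemia, held 21 on its own strand and 2 opposite. LINC01515 on chromosome 10 held 20 in 195.1 kb, or 10.3 per 100 kb, more than any of the 10 leading coding genes, whose highest value was 8.30 in DNAH14. LOC105379102 held 18 and the read-through gene PRH1-PRR4 16, where the coding genes it joins share its reads.

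Ranked by density in place of number, shorter genes came first. Among coding genes of listed strand and at least 10 kb with at least 5 peaks, ZNF646, a zinc finger gene of 11.5 kb on chromosome 16 (31072687 to 31084196, plus strand), had 7 peaks or 60.8 per 100 kb. ZNF687, also a zinc finger gene, had 5 peaks or 46.9 per 100 kb, and EXOSC2, which encodes a subunit of the RNA exosome, 5 or 44.9. ZNF35, KNOP1, DNAJC21, ZNF611, MAP7D3, GYS1 and CCDC82 followed, from 35.0 down to 18.8 per 100 kb. Of the 7 summits in ZNF646, 0 lay in the first of 3 equal parts of the gene and 5 in the middle one, at a median spacing of 0.604 kb. The folds of ZNF646 ran from 4.28 to 6.94, on a median of 54 IP reads over a local input of 6. MAP7D3, which encodes a microtubule-associated protein, had 9 peaks in 43.3 kb with folds from 2.80 to 32.0.

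Summits also crowded into short windows. In windows of 10 kb on 1 strand, LOC100506076 on chromosome 2 had 8 summits, within 8590 bp. ZNF646 had 7 within 4442 bp, and NSUN6, which encodes an RNA methyltransferase, 7 within 5969 bp. Windows with 6 summits were led by DNAH14, within 4890 bp, and CENPF, a kinetochore gene, within 6492 bp. In all, 65 genes had a window with 5 or more summits.

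Size alone did not bring peaks. Of 263 coding genes of listed strand over 500 kb, 82 (31.2%) had no peak on their own strand, as had 15 of 57 genes over 1000 kb. The longest of these were RBFOX1, a splicing regulator gene of 2474 kb, EYS of 1987 kb, CTNNA2 of 1463 kb, DPP10 of 1403 kb and the contactin gene CNTN5 of 1338 kb. RBFOX1, CTNNA2, DPP10 and CNTN5 each had 1 peak on the opposite strand and EYS had 7. A peak list does not hold the input level of genes without a peak, so whether their RNA was measurable was not tested.

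Inside coding genes the summits were spread almost evenly from 5′ to 3′. Of 17972 own-strand summits, 10.8% (10.4 to 11.3) lay in the first of 10 equal parts of the gene body and 10.5% (10.02 to 10.9) in the last. The lowest share was 9.27% (8.85 to 9.70), in part 3. The first 20% of the body held 20.8% (20.2 to 21.4) of summits and the last 20% held 20.9% (20.3 to 21.5). In genes of up to 20 kb the last 20% held 23.7% (21.4 to 26.03) and the first 21.8% (19.6 to 24.1). Genes above 500 kb leaned to the 5′ side, with 39.02% (36.95 to 41.1) of summits in the first of 3 equal parts and 29.2% (27.3 to 31.2) in the last. For genes over 200 to 500 kb the shares were 31.8% and 35.1%, so that the first part held fewer there.

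Distance from the gene ends was then counted in kb. The first 500 bp of coding genes held 341 summits, or 43.1 per Mb. The next 500 bp held 25.6 per Mb, and the stretch from 5 to 10 kb 19.4. Beyond 500 kb the density was 7.52, but only genes over 500 kb reach that far, and their whole bodies held 9.83 per Mb. Each distance counts only the genes that reach it, so position and gene length cannot be told apart in these densities. At the 3′ end the last 500 bp held 20.5 per Mb, fewer than the 27.7 at 0.5 to 1 kb and the 26.9 at 1 to 2 kb before the end. From 10 to 100 kb both ends gave values between 18.0 and 19.6 per Mb.

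**Figure D3:**
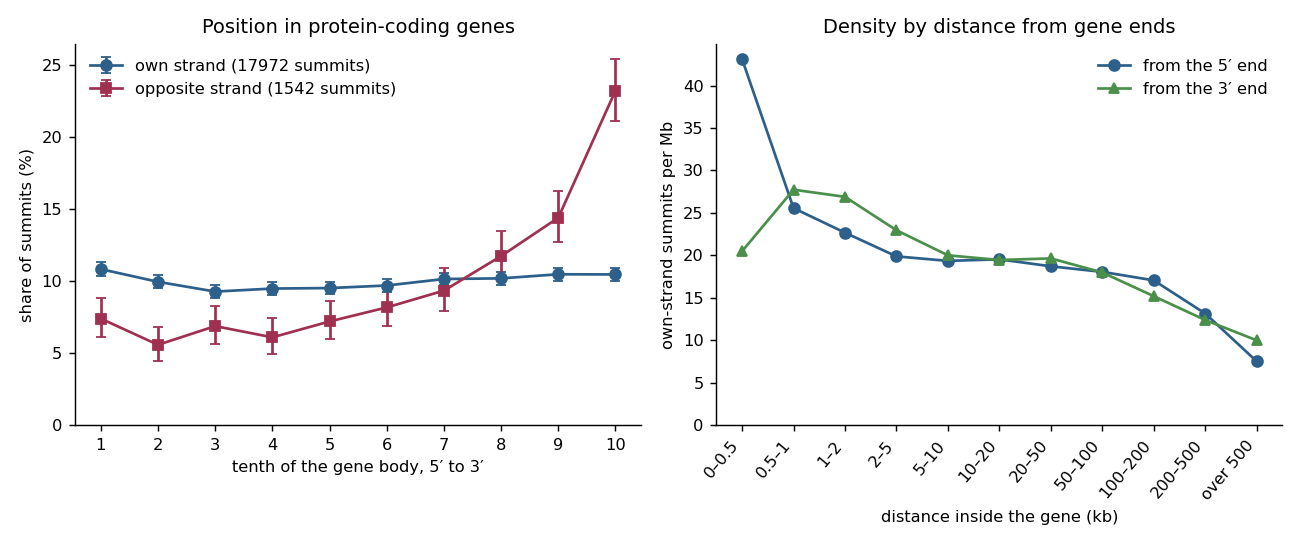
Left, the share of summits in each of 10 equal parts of the body of protein-coding genes, 5′ to 3′, for summits on the gene's own and on the opposite strand, with 95% Clopper-Pearson intervals; right, own-strand summits per Mb by distance inside the gene from its 5′ or 3′ end. Own-strand shares stay between 9.27% and 10.8%, the opposite strand reaches 23.2% in the last part, and the first 500 bp hold 43.1 summits per Mb.

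Peaks on the strand opposite to a coding gene had another distribution. Of 1542 such summits, 23.2% (21.1 to 25.4) lay in the last of 10 equal parts of the gene and 14.4% in the part before it, against 5.58% in part 2. Per Mb, both ends were high on the opposite strand. The last 500 bp had 5.06 summits per Mb and the first 500 bp 5.69. At 1 to 2 kb the values were 5.87 from the 3′ end and 1.58 from the 5′ end, and at 50 to 100 kb 0.958 and 1.38. Overlap with another gene listed on the peak's own strand was found for 34.4% (29.4 to 39.5) of those in the last part. Among the others it was found for 29.4% (26.8 to 32.1). Genes of unlisted strand could not be counted here, so both shares are lower bounds.

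Close neighbours lay mostly on the same strand, and the spacing expected of random placement was not computed. The median distance from a summit to the next on the same strand was 29743 bp (quartiles 8343 and 124518), and within 1 coding gene 13463 bp (4504 and 32170). A neighbour on the same strand within 1 kb was found for 2985 peaks (10.3%, 9.92 to 10.6), and within 10 kb for 46.1%. On the opposite strand 113 peaks (0.389%) had one within 1 kb and 4.97% within 10 kb. The closest summits on a strand were 158 bp apart. Short distances were most frequent at 600 to 800 bp with 507 gaps, followed by 400 to 600 bp with 486, and 286 gaps fell at 1000 to 1200 bp. On the autosomes and chromosome X, peaks at most 1 kb apart formed 1262 pairs, 129 triplets, 13 runs of 4 and 2 runs of 5.

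Close neighbours had more support. Peaks with a neighbour within 1 kb had a median of 30 IP reads and a local input of 1.20, and 30.7% were 200 bp wide. The 3193 peaks with none within 100 kb had 16 reads and a local input of 0.200, and 56.2% were 200 bp wide. Their median folds were close, at 7.03 and 7.06. In the 278 coding genes with 10 or more peaks, the coefficient of variation of the gaps had a median of 1.02 (quartiles 0.839 and 1.19), so that gaps varied about as much as their own mean.

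**Figure D4:**
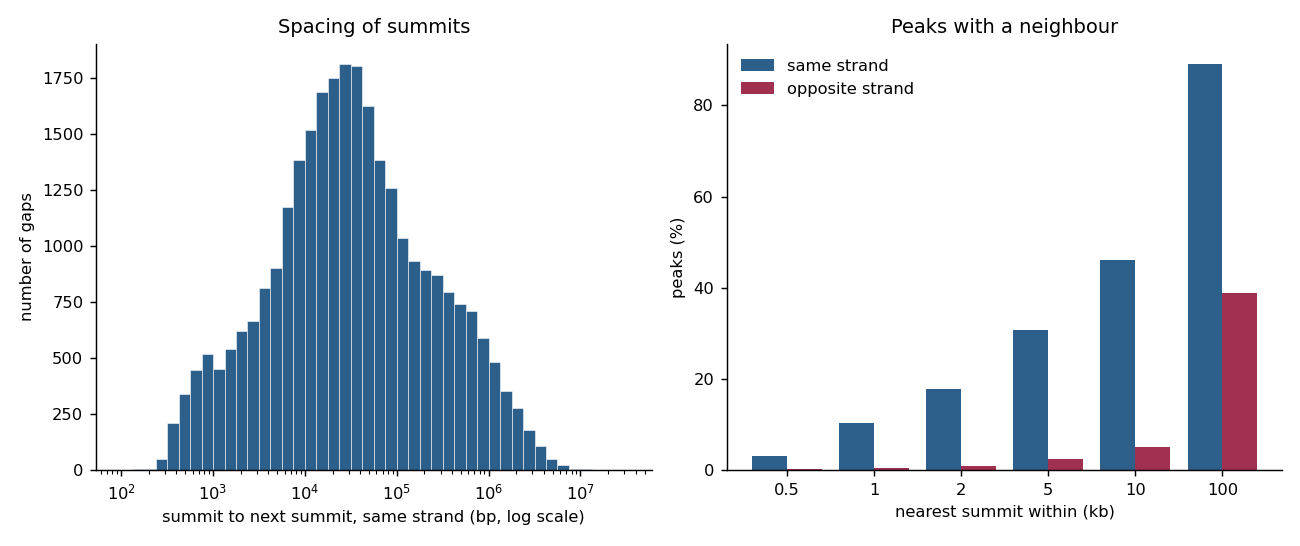
Left, the number of gaps between successive summits of the same strand by gap length in bp (log axis); right, the percentage of peaks with another summit within the given distance in kb, on the same and on the opposite strand. Gaps have a median of 29743 bp with a shoulder below 1 kb, and 10.3% of peaks have a same-strand neighbour within 1 kb against 0.389% on the opposite strand.

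Peaks outside gene bodies also came in runs on 1 strand. Of 4293 such peaks on the autosomes and chromosome X, 1077 (25.1%) lay in 138 runs of 5 or more with steps of at most 50 kb, a rule set after seeing the data. The plus strand of chromosome 6 held the longest, with 30 peaks from 120209579 to 120555343 and folds from 3.30 to 19.5. A second run of 23 peaks lay just before it, from 120009162 to 120153026. Neither run overlapped a coding or long noncoding gene body or held a peak on the minus strand. The nearest listed gene on the left, LOC124901390, ended 125.0 kb before the first of them. On chromosome 7 a run of 26 plus-strand peaks lay between CALCR, 21.9 kb away, and TFPI2, 11.4 kb away, both on the minus strand, and its span held 1 gene body. Its median support of 77 IP reads over a local input of 8 was well above that of the list. On chromosome 21, 22 minus-strand peaks lay within 62.8 kb, with 2 peaks on the plus strand between them. Whether the reads of that run map to a single place was not tested. On chromosome 2, 21 plus-strand peaks spanned 173547549 to 173803614 with no gene body between them.

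Some peaks outside gene bodies lay just past an annotated end. A summit lay within 10 kb past the 3′ end of a listed gene of its own strand for 752 peaks (17.5%). For 294 (6.85%) it lay within 10 kb before a 5′ end of that strand. Past the 3′ end of a gene on the other strand the count was 340 (7.92%).

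Widths piled up at the lower limit. Of all peaks 11848 (40.7%) were exactly 200 bp, and none was narrower. The median was 204 bp, the upper quartile 268 and the highest 2371, and together the peaks covered 7.33 Mb. Width went with read support. Peaks of 200 bp had a median of 15 IP reads and those over 400 bp 40. By local input, 65.4% of the 20% of peaks with the lowest values were 200 bp wide and 13.01% of the 20% with the highest, whose median fold was 4.82 against 7.58 in the lowest.

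Summits sat near the middle of most peaks. Over the whole list the median summit position was 49.2% of the width from the left edge (quartiles 34.5 and 59.3), and 43.2% of summits lay in the middle 20% of the peak. The share was 63.6% (62.4 to 64.8) in peaks over 250 to 400 bp wide. Among the 2165 peaks over 400 bp it was 15.1% (13.6 to 16.6), with quartiles at 27.9% and 70.2%, so that wide peaks had their summits to either side. Measured from the left, the mean position was 49.3% on the plus and 45.8% on the minus strand.

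**Figure D5:**
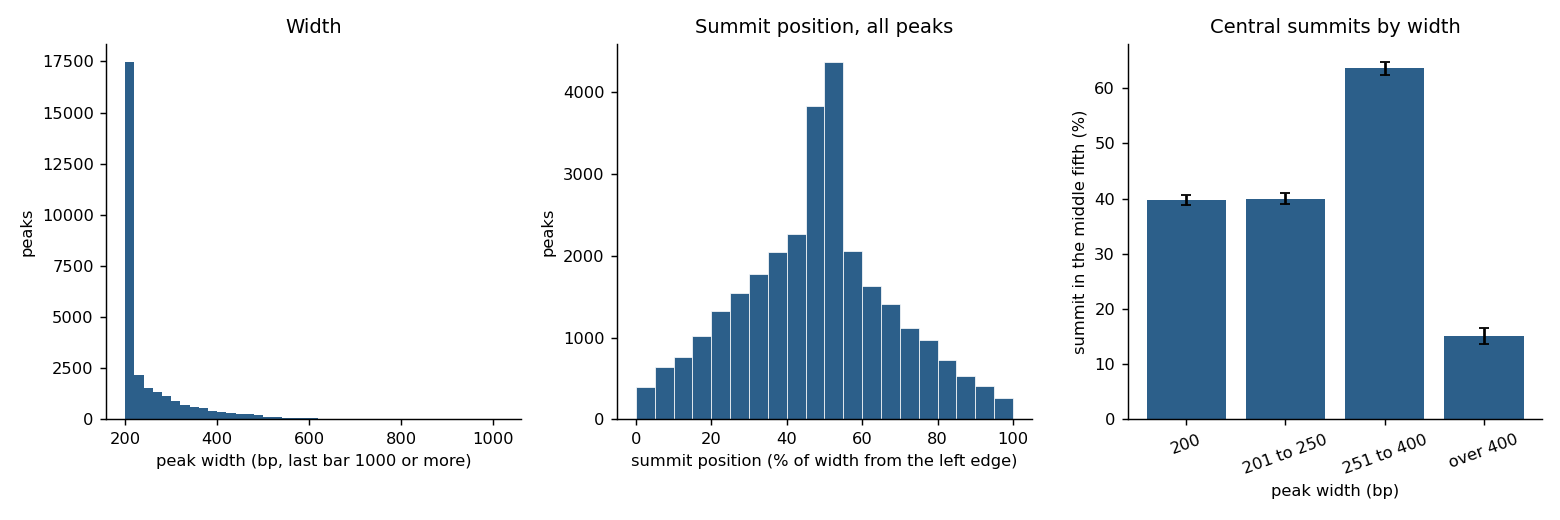
Left, numbers of peaks by width in bp (bars of 20 bp, the last holding all of 1000 bp or more); middle, numbers of peaks by summit position as percentage of the width from the left edge; right, percentage of peaks with the summit in the middle 20% of the peak by width class, with 95% Clopper-Pearson intervals. The first bar, from 200 to under 220 bp, holds 17478 peaks, 11848 of them exactly 200 bp wide, and central summits make up 63.6% over 250 to 400 bp and 15.1% over 400 bp.

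The widest peaks in the body of exactly 1 gene lay on the own strand of NSUN6 and RILPL1. That of NSUN6, at 18564347 to 18566717 on chromosome 10, was 2371 bp wide with a fold of 19.1 on 103 IP reads, and its summit lay at 79.5% from the left. That of RILPL1 on chromosome 12 was 2059 bp wide with a fold of 12.05. ERCC6L2, the cilium gene CPLANE1 and PCLO, which encodes a presynaptic scaffold protein, had peaks of 1257, 1211 and 1136 bp. The PCLO peak had a local input at the background and a fold of 23.3 on 45 IP reads. Only 25 peaks of the list reached 1000 bp.

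The peaks of highest significance and highest fold of the whole list lay in no coding or long noncoding gene body. On chromosome 5, a minus-strand peak from 10022 to 11912 had a −log10 q of 335.8 with a fold of 13.8 on 717 IP reads. On chromosome 4, a plus-strand peak from 190122432 to 190123112 had the fold of 52.6, on 100 reads over a local input at the background. By its coordinates the chromosome 5 peak lies at the start of the chromosome. Whether the reads of these peaks map to a single place was not tested. Among peaks in the body of exactly 1 gene, with 1 peak per gene, NBPF19 led in significance, with a −log10 q of 176.9 and a fold of 15.2 on 373 IP reads. It belongs to a gene family whose copies are so alike that the origin of its reads is uncertain. SREK1, a splicing regulator gene, had 154.3 with a fold of 9.68 on 429 reads. In VIRMA, a gene of the m6A writer complex itself and of unlisted strand, a peak of 334 bp on chromosome 8 had 147.2 with a fold of 27.4 on 238 reads. ROBO1 had 125.5 and PRRC2C 121.2, the latter with a fold of 4.52 on 646 reads over a local input of 86.0. The highest folds among peaks in exactly 1 gene body, at 39.5 in PCMTD1, 35.8 in DMXL1, 35.4 in PARD3, 33.8 in ANXA8 and 32.1 in PARP8, rested on 64 to 128 reads and a local input of at most 1.20. ANXA8 has near-identical copies and is uncertain.

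Across chromosomes the density in merged gene bodies ranged from 11.1 peaks per Mb on chromosome 18 and 11.4 on chromosome 8 to 20.6 on chromosome 17 and 20.8 on chromosome 19. Chromosome 19, with a median coding gene length of 14.5 kb, had a peak in 27.1% of its coding genes of listed strand, and chromosome 13, where that median was 48.1 kb, in 47.8%. The plus strand held 53.3% (52.7 to 53.9) of all peaks. It held 59.0% (54.7 to 63.2) on chromosome 20 and 47.3% (44.2 to 50.5) on chromosome 15. In bins of 1 Mb that hold part of a gene, 2533 of 2877 (88.0%) had a peak, with a median of 9 and a highest count of 64. That count was reached on chromosome 6 from 120 to 121 Mb, where the runs above held 23 and 30 of the peaks, and on chromosome 17 from 46 to 47 Mb. The latter holds KANSL1, NSF, LRRC37A and LRRC37A2, and LRRC37A, LRRC37A2 and part of NSF exist as near-identical copies.

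Gene groups were counted with peaks on the own strand where it was listed and on either strand otherwise, a rule under which 36.9% of all protein-coding genes had a peak. The median gene length of a group is given beside its count, since length went with peak presence. The lists were chosen with earlier results of these data known, so their counts describe the listed genes only. A list of centrosome and Golgi scaffold genes that also holds the kinetochore genes CENPE and CENPF had a peak in 12 of 12 (median length 116.7 kb), with a median of 7.5 peaks. Without CENPE and CENPF it was 10 of 10 (median length 122.6 kb), with a median of 6.5. CENPE, a kinetochore motor gene of 92.5 kb, held 16 with folds from 3.04 to 12.3. CEP350 held 12, AKAP9 10, GOLGA4 and PCM1 9 each and CENPF 8. CEP290 held 7, GOLGB1 and CDK5RAP2 6 each, CEP192 and NIN 3 each and PCNT, a scaffold of the pericentriolar material, 2, which had the highest folds, 17.4 and 20.1. The 12 genes had 62.6 peaks per Mb, and 51.6 without CENPE and CENPF, against 16.9 for all coding genes. Coding genes of listed strand over 100 to 200 kb had 18.8 per Mb and a peak in 68.5%.

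Genes of m6A writers had a peak in 9 of 9 (median length 29.6 kb) and 65.8 peaks per Mb. The list holds METTL16, which methylates RNA on its own outside the METTL3 complex. Without it, 8 of 8 genes of the complex had a peak (median length 23.6 kb), at 82.0 per Mb. Coding genes of listed strand over 20 to 50 kb had a peak in 42.8% and 21.9 per Mb. ZC3H13 held 10, VIRMA 3, METTL3, METTL16, RBM15 and WTAP 2 each, and METTL14, CBLL1 and RBM15B 1 each. RBM15 and RBM15B, which encode RNA-binding adaptors of the complex, had folds of at most 5.04 and 2.99 on medians of 162.5 and 156 IP reads. Readers and erasers had a peak in 8 of 10 (median length 51.9 kb), where coding genes of listed strand over 50 to 100 kb had one in 58.7%. The demethylase gene FTO held 12 in 418.0 kb, IGF2BP2 and YTHDC2 4 each, and the nuclear reader gene YTHDC1 and YTHDF2 3 each. IGF2BP3 held 2, and YTHDF3 and IGF2BP1 1 each. The peak of IGF2BP1 rested on 7 IP reads, and the strand of that gene was not listed. YTHDF1 and the demethylase gene ALKBH5 held 0.

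Large genes at common fragile sites had a peak in 18 of 20 (median length 1442 kb) and 11.3 peaks per Mb, where coding genes of listed strand over 500 kb had a peak in 68.8% and 9.83 per Mb. LRP1B, of unlisted strand, held 56, FHIT 49, GPC6 43, IMMP2L 29, PDE4D 23 and RAD51B 22. DMD held 2 in 2220 kb and CNTNAP2 1 in 2304 kb, while CSMD1 and DPYD held 0. CSMD1, with 0, is 2060 kb long, and LRP1B, with 56, 1899.6 kb.

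Ribosomal protein genes had a peak in 8 of 76 (10.5%, interval 4.66 to 19.7, median length 4.91 kb), with 18.7 per Mb. Coding genes of listed strand had a peak in 6.50% up to 5 kb and in 14.4% over 5 to 10 kb. Their densities were higher than that of the group, at 29.98 and 23.7 per Mb. RPS27A held 2, and RPL22, RPL24, RPL31, RPL34, RPS6 and RPS18 were among those with 1. RPS6 and RPS18 had folds of 2.47 and 2.37 on 145 and 147 IP reads. Early-response genes had a peak in 6 of 22 (27.3%, median length 4.18 kb), at 47.2 peaks per Mb. JUN, a subunit of the AP-1 transcription factor, had 1 with a fold of 4.15 on 281 reads, and ID2 and KLF10 held 2 each, on medians of 13.5 and 13 reads. KLF6, MYC and FOSL2 held 1 each.

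Nuclear long noncoding RNA genes had a peak in 8 of 12 (median length 63.3 kb). By the same rule 7.29% of all 18303 long noncoding genes had one, and on the own strand 14.6% of those over 50 to 100 kb long. KCNQ1OT1, the antisense RNA of an imprinted cluster, held 7 on either strand. FTX held 6 and JPX 5 on their own strands, both in the X-inactivation centre. MALAT1, a nuclear speckle RNA, held 3 with folds from 1.73 to 2.42 on a median of 656 IP reads. TUG1 held 3, PVT1 3, LINC-PINT 2 and NORAD 1. NEAT1, MEG3, SNHG14 and OIP5-AS1 held 0, and SNHG14 had 3 on its opposite strand.

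The list could be set against the cell label only by presence of peaks, which are not levels. Of 8 markers of HEK293T cells (median length 8.999 kb), INA, NES and NEFL had 1 peak each, and VIM, KRT8, KRT18, NEFM and PAX2 had 0. Of 8 markers of other cell types (median length 14.3 kb), namely ALB, HBB, CD3E, PTPRC, INS, TTN, KRT5 and COL1A1, 0 had a peak, which allows a share of up to 36.9% (Clopper-Pearson). TTN and PTPRC had 8 and 1 peaks on their opposite strand. By the same rule 36.9% of all protein-coding genes had a peak, against 37.5% of the HEK293T markers. On the own strand it was 14.4% of coding genes over 5 to 10 kb and 23.8% over 10 to 20 kb. With 8 genes in each set, the counts cannot decide on the cell label.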

How the data were processed

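Chromosome-associated RNA was measured as m6A-IP and input in 2 wild-type samples each. Per the submitters' processing notes, the build was hg38 and the tools were MACS2 2.2.7.1, HISAT2 2.2.1 and SAMtools 1.15.1, with settings and order unstated. No source used here says whether calls were made on pooled replicates. The deposited fold, a linear ratio from the authors' peak caller, sets the IP pileup against local input at each summit. Folds and significance of single peaks are the authors' values throughout. The deposited −log10 columns hold the −log10 of the p-value and q-value. The deposited score column was not used. Depth is known at summits only, since the list holds no library totals.

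Computed here with Python 3.11.15, numpy 2.4.6, pandas 2.3.3, SciPy 1.17.1 and matplotlib 3.10.9 were overlaps with RefSeq gene bounds (GRCh38.p14) by at least 1 bp, gene strand from the RefSeq promoter table, spacing, widths and shares with 95% Clopper-Pearson intervals. IP reads and local input were recovered by matching fold = (scaled IP + 1) / (local input + 1) and a Poisson p to the deposited values, with a relative tolerance of 0.0002. Functions were tested on simulated data. No test over samples was possible. Members, gene lists and rules were chosen with earlier results of these data known. Genes were named as the leaders by number of peaks, density, width, significance, fold and summits per 10 kb, the longest without a peak, and members of 9 lists. Alternatives were a −log10 q of at least 5, the 50% of peaks with the highest fold, the summit rule, non-overlapping genes, and merging within 500 bp.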

Additional observations from a re-analysis of the deposited data

How the results depend on the processing

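Of 50 values under 5 alternatives, 27 stayed within the counting interval (counts within 1.5 times) and 23 moved. With −log10 q of at least 5, the share of peaks in gene bodies was 85.5%, on the gene's strand 94.0%, the median width 206 bp, neighbours within 1 kb 9.34%, the density 15.5 per Mb and coding genes of at most 20 kb with a peak 14.3%. With the 50% of peaks of highest fold, 14542 peaks gave a median width of 213 bp, neighbours 5.32%, a density of 8.43 per Mb, carriers among coding genes over 200 kb 64.0% and of at most 20 kb 7.46%, and 45 listed genes with a peak against 72. With only the genes that overlap no other, 36.2% of peaks lay in bodies, 94.9% on the gene's strand, in 2974 coding genes at 20.4 per Mb; carriers were 75.5% over 200 kb and 14.3% of at most 20 kb, the first 20% of the body held 20.07% of summits, and 32 listed genes had a peak, as fewer genes enter. Merging within 500 bp gave 2.95% with a neighbour, by construction, and 16.3 per Mb. Long genes carried peaks more often than short ones under each of the 5. No paired analysis was possible because the list carries no values per replicate. For the same reason no replicate could be left out. With a median of 24 IP reads per summit, single peaks are the least certain values.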
